A study of Homo sapiens with 8 samples.

Results

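The genes described are nuclear-encoded subunits of the oxidative phosphorylation system in MEL1, an established human embryonic stem cell (ESC) line, as read from RNA sequencing counts. They were chosen by name, and no measured value entered the rule, although earlier results of these data were known. The rule took symbols of the NDUFA, NDUFB, NDUFC, NDUFS and NDUFV series, SDHA to SDHD, and the UQCR, COX4 to COX8 and ATP5 series. NDUFAB1, CYC1 and CYCS were added, and pseudogenes and antisense genes were left out. This gave 89 genes of 27317 symbols. By complex they fell into 37 genes of complex I, 4 of complex II, 11 of complex III with cytochrome c, 18 of complex IV and 15 of the ATP synthase (complex V). A further 4 symbols begin with ATP5 but are no established subunits here, namely ATP5S, ATP5SL, the extra copy ATP5L2 and the read-through transcript ATP5J2-PTCD1. NDUFA4, named for complex I, was placed with complex IV, where the protein is now counted.

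The study asked which genes change in ESCs and in early mesoderm when stem cells meet a dioxin. Cells of the MEL1 line were exposed as ESCs to 2 nM TCDD (2,3,7,8-tetrachlorodibenzodioxin, a ligand of the aryl hydrocarbon receptor) dissolved in DMSO, or to DMSO alone as the control, so all 4 groups carried DMSO. RNA was taken at D1, directly before differentiation was started, or at D2, when cells had spent 2 days in cardiac differentiation medium with 5 µM of the GSK3 inhibitor CHIR99021. Each group (DMSO at D1, TCDD at D1, DMSO at D2, TCDD at D2) had 2 libraries. All came from 1 line, and neither the length of exposure nor the origin of the replicates in separate cultures is stated in the labels, so p-values measure only the spread between these libraries, which may be technical.

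Oxidative phosphorylation is the last step of respiration, in the inner mitochondrial membrane. Complex I takes electrons from NADH and complex II takes them from succinate, complex III passes them to the small carrier cytochrome c, and complex IV hands them to oxygen. The proton gradient that complexes I, III and IV build up drives the ATP synthase. Pluripotent stem cells are known for relying strongly on glycolysis, and heart muscle for a dense content of these complexes. Mitochondrial DNA encodes a few core subunits of complexes I, III, IV and V, and the genes below supply most of the rest, including every subunit of complex II.

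Libraries held 34873055 to 43770420 counts, of which the 89 genes took 1.03% to 1.07% at D1 and 1.12% to 1.16% at D2. The ESC label was checked on 5 pluripotency genes (POU5F1, NANOG, SOX2, LIN28A, DPPA4), whose summed level was 3731 to 3897 CPM (counts scaled to library size and composition) at D1 and 3328 to 3685 at D2. Primitive streak and mesoderm markers (5 genes) summed to 8.42 to 10.1 CPM at D1, to 566 and 604 CPM with DMSO at D2, and to 273 and 306 CPM with TCDD at D2. The D2 sums were led by MIXL1, EOMES and T. TBX6 did not rise (6.42 to 7.65 CPM at D1, 4.87 to 6.01 CPM at D2). MESP1 was at 0.482 to 0.853 CPM at D1 and 1.01 to 1.35 CPM at D2, and was not lower with TCDD. Of the other cell types checked, neuroectoderm markers (4 genes) summed to 31.6 to 41.6 CPM. Endoderm markers (3) summed to 0.28 to 0.677 CPM at D1 and 6.65 to 8.28 CPM at D2, mostly FOXA2. Trophoblast markers (4, CGA at 0) summed to 9.48 to 11.3 CPM at D1 and 0.973 to 1.59 CPM at D2, mostly KRT7. Cardiomyocyte markers (5) summed to 17.3 to 19.8 CPM at D1 and 7.45 to 8.39 CPM at D2. The fibroblast list (5) summed to 834 to 929 CPM at D1 and 297 to 355 CPM at D2, from COL1A1, COL1A2 and THY1 alone, with LUM at 0 in every library and DCN at most 0.0551 CPM. CYP1A1, the classic target of the aryl hydrocarbon receptor, was at 0.761 and 0.813 CPM with DMSO and 101 and 77.7 CPM with TCDD at D1. At D2 it was at 0.464 and 0.292 CPM with DMSO and only 2.56 and 1.82 CPM with TCDD.

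In undifferentiated cells with DMSO, nearly the whole set was expressed. The low-count filter passed 84 of the 89 genes, and these are the genes tested below. The 5 that did not pass were COX8C with no count in any library, ATP5J2-PTCD1 likewise with none, COX7B2 with 0 to 1 counts, ATP5L2 with 1 to 3 counts and COX6A2, the heart and muscle isoform of COX6A, with 2 to 9 counts per library. Shares of counts within groups of related genes, given below, are not corrected for length. Other levels of different genes were compared only as CPM per kilobase of annotated exon, an approximate scale because the length joins all annotated exons. On it, the medians at D1 with DMSO, over genes whose mean of the 8 libraries was at least 5 CPM, were 44.4 for complex I, 37.3 for complex II, 58.3 for complex III with cytochrome c, 100.1 for complex IV and 91.8 for complex V. ATP5B, the catalytic beta subunit of the ATP synthase, had the highest level per kilobase of all 89 genes (611), followed by NDUFS5, an accessory subunit of complex I (425), ATP5I (307) and UQCRH (293). At the other end, among genes with such a mean, ATP5S had 1.11, NDUFA9 4.46 and SDHC 4.59. Of the isoform pairs, the ubiquitous form carried nearly all the RNA: COX4I1 was at 151 per kilobase and COX4I2 at 0.843, COX7A2 at 101 and the heart form COX7A1 at 0.890, and COX6B1 at 129 and the testis form COX6B2 at 2.21.

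Promoter sequence was at hand for 70 of the 89 genes, which have 83 annotated starts in the RefSeq table (build GRCh38.p14, while the counts were made on hg19). Each window of 300 bases ran from 250 bases before the start to 50 after it and was searched on both strands, overlaps allowed, for letters associated with factors known to act on respiratory genes. The letters of nuclear respiratory factor 1 (GCGCANGCG) were in 27.7% of the windows against 7.52% of all 35116 promoter windows and 9.64% of the 22199 windows of protein-coding genes. The ETS letters CCGGAAG, which the factor GABP (also called NRF2) can bind, were in 25.3% against 10.3% and 12.8%, and the YY1 letters AAGATGG in 22.9% against 5.84% and 6.04%. The Sp1 letters GGGCGGG were in 28.9% against 33.1% and 42.3%, and the core letters of the aryl hydrocarbon receptor element, TNGCGTG, in 4.82% against 5.51% and 6.28%. Among windows of genes that rose by D2 with DMSO (51 windows) and of genes not called (25 windows), the NRF1 letters stood in 27.5% and 28%, the ETS letters in 33.3% and 16%, and the YY1 letters in 25.5% and 16%. Genes that fell had 4 windows, of which 1 held the NRF1 letters, 0 the ETS letters and 2 the YY1 letters.

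The 250 bases before the start are printed for 6 genes on which the results below turn: CYCS and ATP5H with the largest rises, COX5B with the largest rise in complex IV, ATP5I whose window held 3 of the motifs, and COX7C and COX6B2, which fell. Sequences run 5′ to 3′ towards the start, and capitals mark the NRF1, ETS or YY1 letters on either strand.
CYCS (chr7:25125261-25125510, minus strand): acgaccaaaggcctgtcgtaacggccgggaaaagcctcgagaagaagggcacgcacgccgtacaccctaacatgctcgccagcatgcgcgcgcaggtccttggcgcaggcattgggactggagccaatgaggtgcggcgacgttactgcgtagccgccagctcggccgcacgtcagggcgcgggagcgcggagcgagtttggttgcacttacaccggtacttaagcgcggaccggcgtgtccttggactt
ATP5H, now ATP5PD (chr17:75046970-75047219, minus strand): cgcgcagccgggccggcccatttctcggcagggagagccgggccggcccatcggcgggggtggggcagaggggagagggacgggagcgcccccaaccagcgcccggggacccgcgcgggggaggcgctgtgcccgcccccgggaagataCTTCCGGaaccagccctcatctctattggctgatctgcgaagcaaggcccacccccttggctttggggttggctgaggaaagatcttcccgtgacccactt
COX5B (chr2:97645812-97646061, plus strand): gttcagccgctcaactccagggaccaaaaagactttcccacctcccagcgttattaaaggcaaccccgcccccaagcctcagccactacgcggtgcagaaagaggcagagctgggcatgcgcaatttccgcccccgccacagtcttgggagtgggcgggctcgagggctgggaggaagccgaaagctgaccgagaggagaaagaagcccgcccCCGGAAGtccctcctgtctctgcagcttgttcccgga
ATP5I, now ATP5ME (chr4:674277-674526, minus strand): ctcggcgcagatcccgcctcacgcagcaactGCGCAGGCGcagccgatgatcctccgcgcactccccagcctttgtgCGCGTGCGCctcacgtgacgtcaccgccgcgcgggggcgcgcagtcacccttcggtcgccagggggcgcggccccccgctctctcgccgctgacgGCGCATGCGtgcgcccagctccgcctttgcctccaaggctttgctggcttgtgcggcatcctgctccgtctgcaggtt
COX7C (chr5:86617691-86617940, plus strand): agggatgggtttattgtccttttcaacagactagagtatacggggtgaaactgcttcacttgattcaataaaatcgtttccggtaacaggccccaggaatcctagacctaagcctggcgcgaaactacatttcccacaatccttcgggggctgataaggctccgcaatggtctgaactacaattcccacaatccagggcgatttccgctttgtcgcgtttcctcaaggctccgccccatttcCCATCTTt
COX6B2 (chr19:55354720-55354969, minus strand): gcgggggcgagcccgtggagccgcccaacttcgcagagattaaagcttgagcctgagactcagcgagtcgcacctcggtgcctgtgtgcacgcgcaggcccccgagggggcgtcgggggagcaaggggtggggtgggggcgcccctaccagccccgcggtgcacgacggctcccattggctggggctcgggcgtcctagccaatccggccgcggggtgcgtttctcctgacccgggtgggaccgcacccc
ATP5I carried the NRF1 letters 3 times, beginning 219, 173 and 78 bases before the start. ATP5H had 1 ETS match 101 bases before the start, COX5B had 1 at 37 bases and another at 5 bases that runs past the printed end, and COX7C had the YY1 letters 8 bases before the start. The windows of CYCS and COX6B2 held none of these letters.

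Between D1 and D2 with DMSO, the genes of the set moved mostly upwards and by small amounts. The test called a gene when its adjusted p, from edgeR's quasi-likelihood test over all 17268 genes, was under 0.05. Fold changes are given as log2 ± standard error, with 2 libraries in each group. Of the 84 genes, among them ATP5S and ATP5SL, which are no established subunits, 52 rose (61.9%), 5 fell (5.95%) and 27 were not called. Over all genes tested, 63.2% were called, 32.5% higher and 30.7% lower. The median log2 fold change was 0.18 for the 84 genes against 0.01 for all genes, whose middle 50% ran from -0.38 to 0.29. When a change of more than 1.2-fold was required, 18 genes rose (21.4%) and 1 fell (1.19%), against 16.5% and 19.8% of all genes. The same requirement with TCDD left 16 genes higher (19%) and 1 lower (1.19%), against 17% and 21.5%, so the share of rising genes was near that of all genes. With TCDD, 55 of the 84 rose (65.5%), 4 fell (4.76%) and 25 were not called, against 65.3% of all genes called, 33.1% higher and 32.2% lower, and the median was 0.19 against 0.00. The DMSO and TCDD time courses share no library, but they were fitted together with a shared estimate of the spread. Of the 84 genes, 53 were called in the same direction in both. The matching share over all genes was not counted, and 63.2% and 65.3% of all genes were called in the single time courses.

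The split of calls depended on how libraries were scaled. With no correction for library composition, 34 genes rose and 9 fell with DMSO (40.5% and 10.7%), while 25.3% of all genes rose and 37.2% fell, and 34 rose and 12 fell with TCDD (40.5% and 14.3%), against 24.2% and 40.5%. That scaling moved the median of all genes to -0.08 with DMSO and -0.11 with TCDD, and the medians of the 84 genes to 0.10 and 0.08. The medians of complexes I to V each remained above 0 under all 4 scalings in both time courses, but most became much smaller. With no correction for composition they were 0.06, 0.07, 0.14, 0.19 and 0.28 for complexes I to V with DMSO, where the TMM scaling used elsewhere gave 0.14, 0.16, 0.22, 0.27 and 0.37. With TCDD they were 0.08, 0.04, 0.10, 0.05 and 0.23, where it gave 0.19, 0.15, 0.20, 0.16 and 0.34. Because the RNA came from whole cultures, fewer cells of a type and less RNA per cell cannot be told apart in these values, and the share of the D2 change that moves with the streak markers above was not tested.

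**Figure D1:**
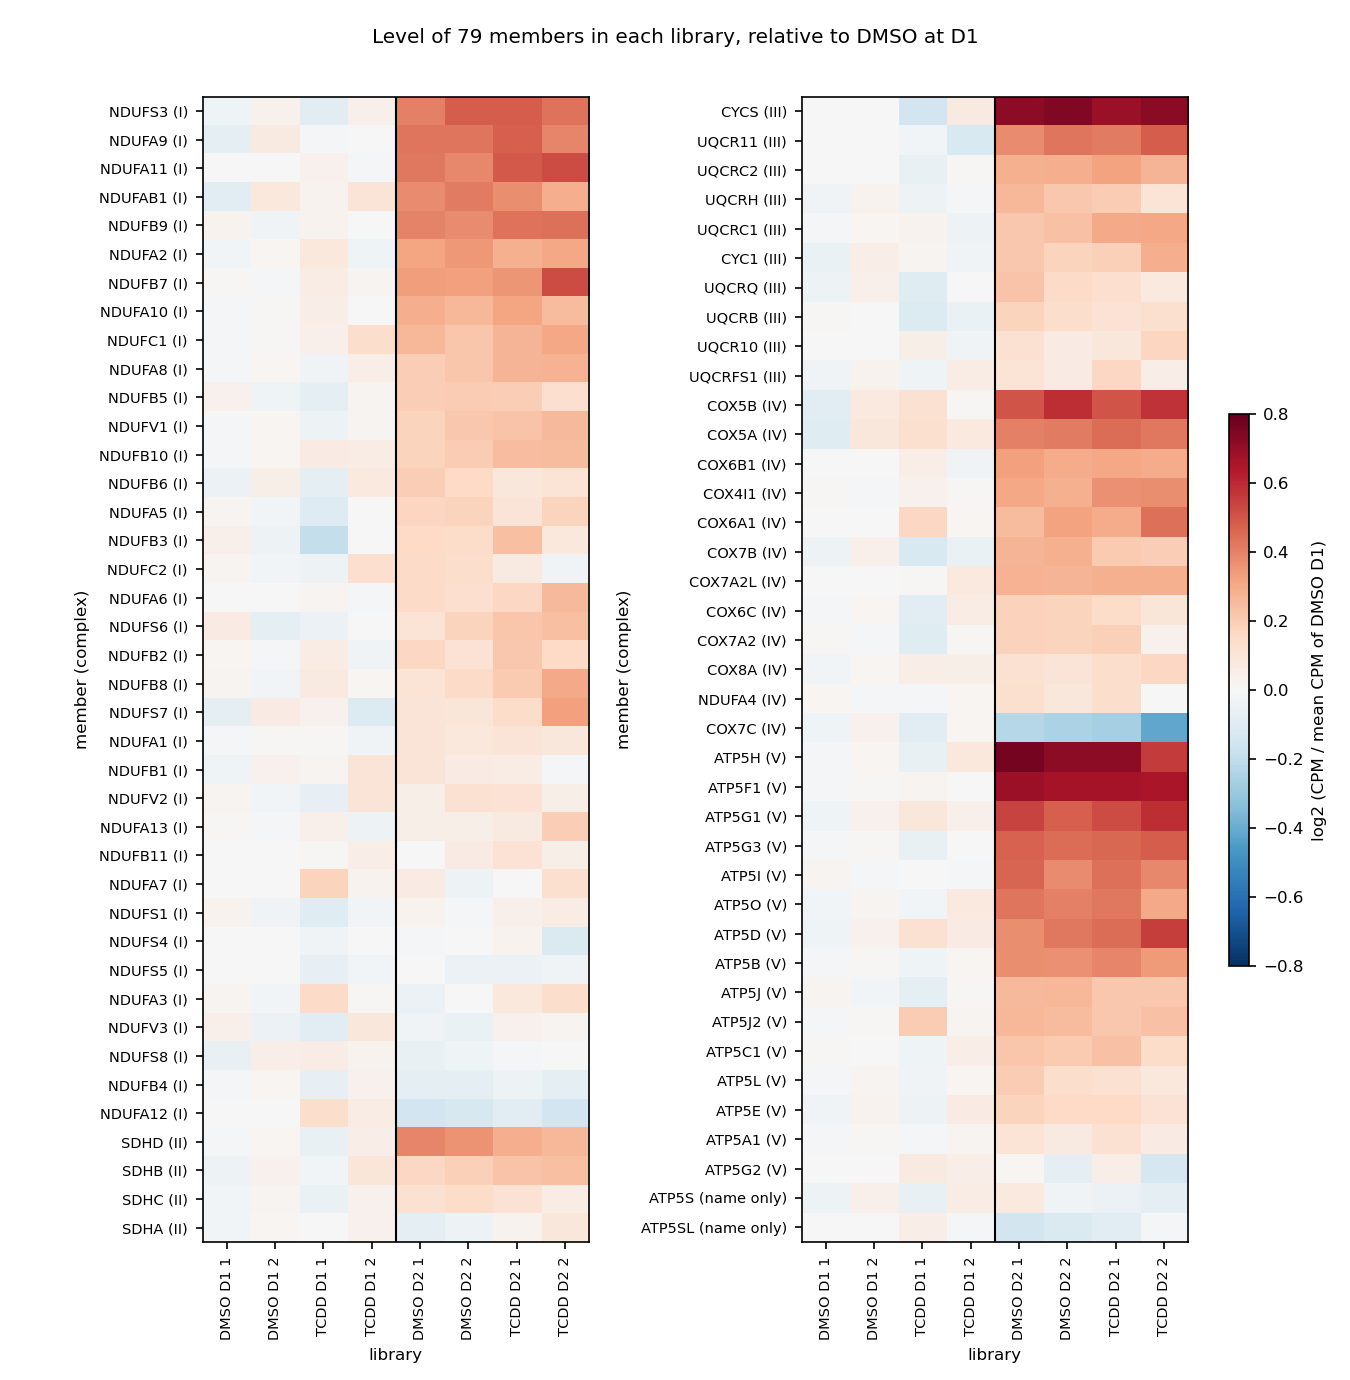
Level in each of the 8 libraries of 79 of the 80 tested genes whose mean over these libraries was at least 5 CPM, as the log2 ratio of its CPM to the mean of the 2 DMSO libraries at D1, with genes ordered by complex and by their level with DMSO at D2. The 4 libraries at D2 (right of each line) are mostly red, with CYCS, ATP5H and ATP5F1 the darkest and COX7C the clearest blue row.

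**Figure D2:**
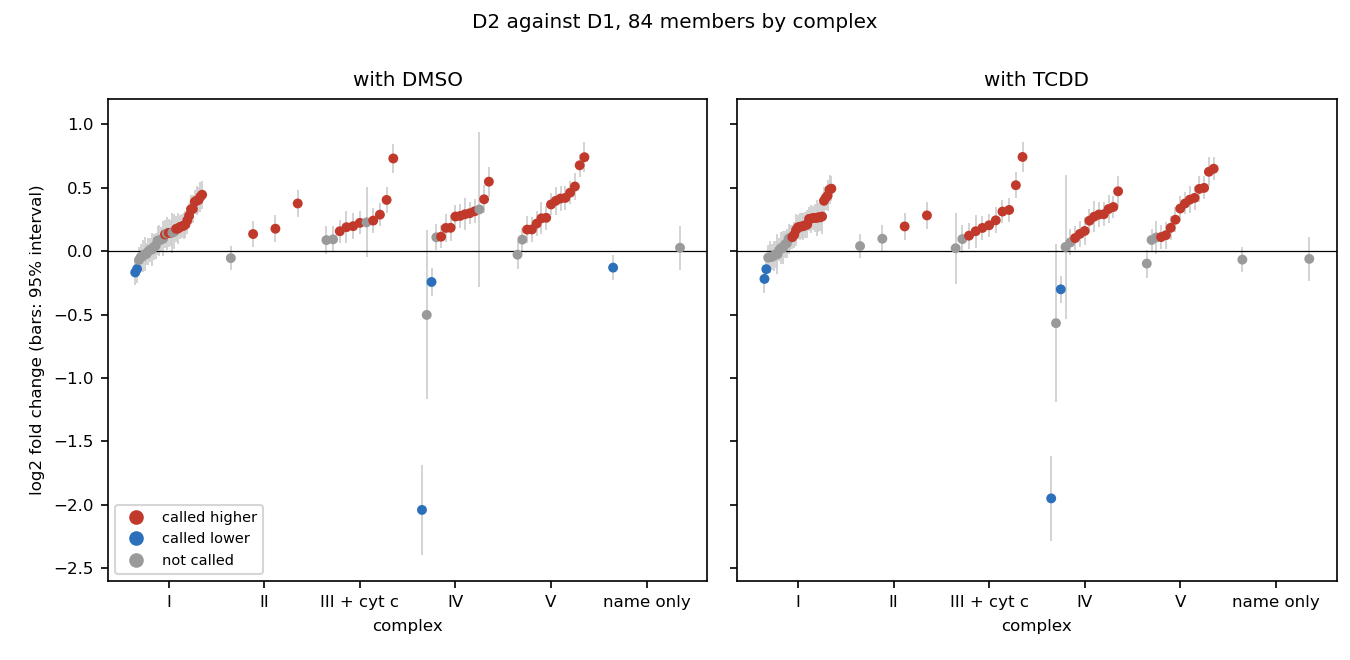
Log2 fold change of D2 against D1 with its 95% interval for the 84 tested genes, by complex, with DMSO (left) and TCDD (right). Red points were called higher, blue points lower and grey points not called, and the lowest point in complex IV is COX6B2 at -2.04 and -1.95.

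Complex V, the ATP synthase, had the largest median rise of the 5 complexes with DMSO, 0.37, and with TCDD, 0.34. With DMSO 13 of its 15 genes rose, none fell, and ATP5A1 and ATP5G2 were not called. With TCDD 12 rose and none fell. The difference between complexes was not tested. All 4 genes of the peripheral stalk, the arm that holds the catalytic head still, rose in both time courses. ATP5H, subunit d of the stalk, was at 130.4 and 133 CPM with DMSO at D1, 127 and 139.7 CPM with TCDD at D1, 224 and 216 CPM with DMSO at D2 and 217 and 194 CPM with TCDD at D2. Every D2 library was thus above every D1 library, and the second TCDD library at D2 was the lowest of the 4. The log2 fold change was 0.74 ± 0.055 (adjusted p = 5.31e-10) with DMSO, a 1.67-fold rise, and 0.63 ± 0.055 (adjusted p = 5.90e-09) with TCDD.

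ATP5F1, subunit b, which forms the body of the stalk, was at 115 and 116 CPM with DMSO at D1 and 117 and 115 CPM with TCDD at D1, then at 186 and 184 CPM and 183 and 182 CPM at D2. Libraries of the same day lay close together, and the log2 fold changes were 0.68 ± 0.044 (adjusted p = 2.78e-11) with DMSO and 0.65 ± 0.044 (adjusted p = 4.85e-11) with TCDD. ATP5O, the oligomycin sensitivity subunit that joins stalk and head, rose by 0.42 ± 0.049 and 0.34 ± 0.049, and ATP5J (subunit F6) by 0.26 ± 0.046 and 0.25 ± 0.046. In the catalytic head, ATP5B rose from 1115 and 1130 CPM to 1455 and 1444 CPM with DMSO, a log2 fold change of 0.37 ± 0.042 (adjusted p = 1.33e-07). Its alpha partner ATP5A1 went from 929.8 and 943 CPM to 1009 and 986 CPM, 0.09 ± 0.042 (adjusted p = 0.0633), which was not called, although the call was made without TCDD at D1 replicate 1 (adjusted p = 0.0351) or replicate 2 (adjusted p = 0.0353). Among small membrane subunits, ATP5I rose by 0.42 ± 0.047 with DMSO and 0.42 ± 0.047 with TCDD.

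The c ring, the rotor through which protons pass, is built from 1 mature protein that 3 genes encode. ATP5G1 and ATP5G3 rose while ATP5G2 was not called. ATP5G1 was at 61.3 and 64.1 CPM with DMSO at D1 and 91.2 and 87.4 CPM at D2 (0.51 ± 0.050, adjusted p = 1.68e-08), and with TCDD at 66.8 and 64.4 CPM and 90.1 and 94.5 CPM (0.49 ± 0.050, adjusted p = 2.55e-08). ATP5G3 was at 249.9 and 254 CPM and 349.6 and 344 CPM with DMSO (0.46 ± 0.043, adjusted p = 9.05e-09), and at 242 and 253 CPM and 347 and 352 CPM with TCDD (0.50 ± 0.043, adjusted p = 2.68e-09). ATP5G2 was at 234 and 233 CPM and 235 and 222 CPM with DMSO, a log2 fold change of -0.03 with a 95% interval from -0.14 to 0.08. With TCDD it was at 245 and 242 CPM and 242 and 213 CPM, -0.10 ± 0.053 (adjusted p = 0.109), and was called lower without TCDD at D2 replicate 1 (-0.19, adjusted p = 0.00756) and with no correction for composition (-0.21, adjusted p = 0.00178). Of the counts of the 3 genes, ATP5G2 held 42.6 ± 0.490% with DMSO at D1 and 34.4 ± 0.582% at D2 (SD, n = 2), with the D1 and D2 libraries apart in each time course. ATP5G3 held 46.0 ± 0.201% and 52.2 ± 0.655%, and ATP5G1 11.4 ± 0.290% and 13.4 ± 0.0735%. These shares do not depend on library scaling. They are not corrected for length, with 683 exon bases annotated for ATP5G1, 2244 for ATP5G2 and 5673 for ATP5G3. They therefore compare groups and do not rank the 3 genes. Per kilobase, the levels with DMSO at D1 were 91.8, 104 and 44.4 in that order.

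**Figure D3:**
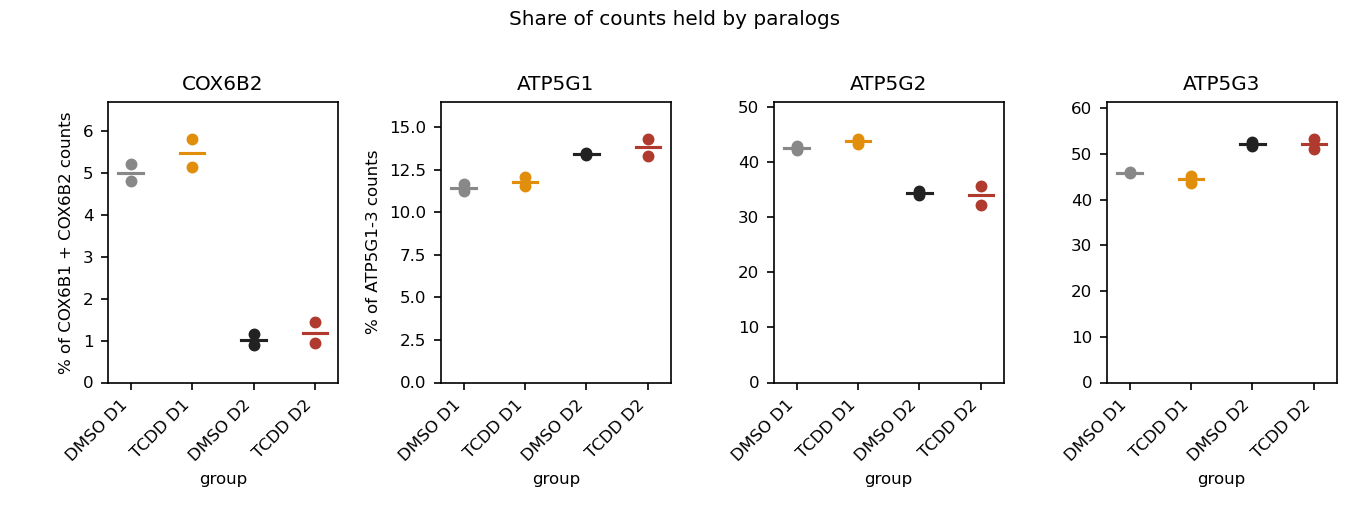
Share of counts held by COX6B2 within COX6B1 and COX6B2, and by each c-ring gene within ATP5G1, ATP5G2 and ATP5G3, in percent (vertical axis from 0) for each group. Counts were not corrected for gene length, so the panels compare groups and do not rank genes. Points are libraries and bars are group means, and the D1 and D2 libraries do not overlap in any panel.

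In complex III with cytochrome c, 8 of 11 genes rose with DMSO, 9 rose with TCDD and none fell, with medians of 0.22 and 0.20. CYCS, cytochrome c itself, which carries electrons to complex IV and also starts the caspase cascade when released, moved most. It was at 156 and 156 CPM with DMSO and 140.2 and 164 CPM with TCDD at D1, and at 256 and 261 CPM and 251 and 258 CPM at D2. All 4 libraries at D2 lay above the 4 at D1, with log2 fold changes of 0.73 ± 0.056 (adjusted p = 1.03e-09) with DMSO and 0.74 ± 0.056 (adjusted p = 7.87e-10) with TCDD, or 1.66-fold and 1.67-fold. UQCR11, a small subunit at the complex's edge, rose from 68.5 and 68.3 CPM to 88.9 and 92.0 CPM with DMSO (0.40 ± 0.050, adjusted p = 5.13e-07) and from 67.5 and 62.8 CPM to 91.2 and 95.7 CPM with TCDD (0.52 ± 0.050, adjusted p = 1.29e-08). The core proteins UQCRC1 and UQCRC2 rose by 0.22 ± 0.043 and 0.29 ± 0.044 with DMSO.

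Of the subunits that handle electrons, CYC1 (cytochrome c1) rose by 0.20 ± 0.050 (adjusted p = 0.00177) with DMSO and 0.24 ± 0.050 (adjusted p = 0.000230) with TCDD. With no correction for composition the call with DMSO was lost (0.11, adjusted p = 0.0616). UQCRFS1, the Rieske iron-sulphur protein, was at 63.5 and 66.0 CPM at D1 and 69.7 and 67.9 CPM at D2 with DMSO (0.09 ± 0.053, adjusted p = 0.160) and was not called in either time course, except with TCDD when TCDD at D1 replicate 2 was left out (0.15, adjusted p = 0.0379). UQCRH, the hinge protein, rose by 0.24 ± 0.047 (adjusted p = 0.000129) with DMSO and 0.18 ± 0.047 (adjusted p = 0.00176) with TCDD, the latter lost with no correction for composition (0.07, adjusted p = 0.179). Its near-identical copy UQCRHL, at 3.68 and 3.71 CPM with DMSO at D1, was not called. How reads that fit both copies were counted is not given, so the pair's values are uncertain.

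Complex IV, cytochrome c oxidase, had 15 tested genes, of which 10 rose and 2 fell in each time course, with medians of 0.27 with DMSO and 0.16 with TCDD. Over these 15 genes the median difference between the time courses, TCDD less DMSO, was -0.03, and none was called. Of the 11 general isoforms, 9 rose with DMSO, COX7C fell and NDUFA4 was not called. The medians of these 11 were 0.28 with DMSO and 0.27 with TCDD. COX5B, a nuclear subunit on the matrix side, was at 112 and 125 CPM with DMSO and 129 and 119 CPM with TCDD at D1, and at 168 and 178 CPM and 168 and 177 CPM at D2. The 4 D2 libraries lay above the 4 D1 libraries, and the log2 fold changes were 0.55 ± 0.057 (adjusted p = 6.41e-08) and 0.47 ± 0.056 (adjusted p = 4.49e-07). COX5A, its partner, rose by 0.41 ± 0.052 and 0.33 ± 0.052, COX4I1, the largest nuclear subunit, by 0.30 ± 0.042 and 0.35 ± 0.042, and COX7A2L, a factor of respiratory supercomplexes, by 0.27 ± 0.045 and 0.24 ± 0.045.

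COX7C, a small transmembrane subunit, went the other way. It was at 394 and 412 CPM with DMSO and 379 and 407 CPM with TCDD at D1, and at 344 and 338 CPM and 336 and 302 CPM at D2. No D2 library reached a D1 library, and the log2 fold changes were -0.24 ± 0.051 (adjusted p = 0.000353) with DMSO and -0.30 ± 0.052 (adjusted p = 3.30e-05) with TCDD. COX6B2, known as the testis form of the subunit that bridges the oxidase dimer, fell most of all. It was at 6.64 and 6.10 CPM with DMSO and 6.77 and 7.32 CPM with TCDD at D1, and at 1.78 and 1.34 CPM and 2.18 and 1.40 CPM at D2, which is 0.243 and 0.259 of the D1 level. The log2 fold changes were -2.04 ± 0.17 (adjusted p = 1.58e-09) and -1.95 ± 0.16 (adjusted p = 1.42e-09). COX6B1, the general form, rose by 0.31 ± 0.045 and 0.29 ± 0.045. The share of COX6B2 in the counts of the pair thus went from 5.00 ± 0.273% to 1.02 ± 0.184% with DMSO and from 5.47 ± 0.486% to 1.19 ± 0.353% with TCDD (SD, n = 2). This share is not corrected for length, with 2885 exon bases annotated for COX6B2 and 936 for COX6B1.

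The other isoform pairs of complex IV rested on few reads on the tissue-specific side. COX4I2, the lung form, was at 0.583 to 0.926 CPM over the 8 libraries and COX7A1, the heart and muscle form, at 0.365 to 1 CPM, and neither was called. COX7A1 was called lower with DMSO when DMSO at D2 replicate 1 was left out (-1.10, adjusted p = 0.0235). COX6A1 rose by 0.29 ± 0.060 with DMSO and 0.27 ± 0.060 with TCDD, COX7B by 0.28 ± 0.046 and 0.29 ± 0.046, and COX7A2 by 0.18 ± 0.053 and 0.16 ± 0.053. The COX7A2 call with TCDD was lost without TCDD at D1 replicate 1 (0.11, adjusted p = 0.115) or TCDD at D2 replicate 1 (0.08, adjusted p = 0.248), and both its calls were lost with no correction for composition, at 0.10 and 0.05. COX8A stood at the threshold, with 0.11 ± 0.044 (adjusted p = 0.0297) with DMSO and 0.10 ± 0.044 (adjusted p = 0.0455) with TCDD. The first call was lost without DMSO at D1 replicate 1 or either DMSO library at D2 (0.10, 0.11 and 0.13), the second without any 1 of the libraries of TCDD at D1, TCDD at D2 or DMSO at D2 (0.08 to 0.12), and with no correction for composition the value with TCDD was -0.01. NDUFA4 went from 174 and 170.4 CPM to 189 and 183 CPM with DMSO (0.11 ± 0.049, adjusted p = 0.0588), and it was called higher without either TCDD library at D1 or without TCDD at D2 replicate 1 (each 0.11), and with TCDD without TCDD at D2 replicate 2 (0.13).

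Complex I is the largest of the complexes. With DMSO 18 of 37 rose, 2 fell and 17 were not called, with a median of 0.14, and with TCDD 22 rose and 2 fell, with a median of 0.19. The nucleus supplies 7 core genes, which bind the flavin and the iron-sulphur clusters or sit beside them. Of these, 2 rose with DMSO (28.6%, near the 32.5% of all genes) and 4 with TCDD (57.1%, against 33.1% of all genes). NDUFS3, a core subunit of the arm that reaches into the matrix, was at 58.4 and 61.2 CPM with DMSO and 56.1 and 61.5 CPM with TCDD at D1, and at 79.1 and 83.7 CPM and 83.6 and 80.7 CPM at D2. The days did not overlap, and the log2 fold changes were 0.45 ± 0.054 (adjusted p = 3.82e-07) and 0.49 ± 0.054 (adjusted p = 1.06e-07). NDUFV1, which carries the flavin where NADH is oxidised, rose by 0.20 ± 0.046 (adjusted p = 0.000868) with DMSO and 0.25 ± 0.046 (adjusted p = 5.24e-05) with TCDD.

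NDUFS1 and NDUFS7, further core genes, were not called with DMSO (0.01 and 0.10) and were called higher with TCDD (0.11 and 0.27). The difference between their 2 time courses was tested and not called (adjusted p = 0.658 and 0.541). The NDUFS1 call was lost without any of 5 libraries (both of DMSO at D2, both of TCDD at D2 and TCDD at D1 replicate 1), at 0.08 to 0.13.

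Among the 30 accessory genes of complex I, 16 rose with DMSO. The largest rises were of NDUFA9, which stabilises the joint between the arms, with 0.43 ± 0.058 (adjusted p = 1.56e-06) and 0.44 ± 0.058 (adjusted p = 1.04e-06), and of NDUFA11, a membrane subunit, with 0.40 ± 0.048 (adjusted p = 2.96e-07) and 0.49 ± 0.048 (adjusted p = 1.38e-08). NDUFAB1, the mitochondrial acyl carrier protein, was at 80.6 and 91.3 CPM with DMSO and 87.6 and 92.3 CPM with TCDD at D1, and at 112 and 115 CPM and 111 and 105 CPM at D2, so that its DMSO replicates at D1 were farther apart than those at D2. It rose by 0.40 ± 0.055 (adjusted p = 2.65e-06) and 0.27 ± 0.055 (adjusted p = 0.000264). NDUFA12, another accessory gene, fell from 45.5 and 45.6 CPM to 41.0 and 41.6 CPM with DMSO (-0.14 ± 0.054, adjusted p = 0.0283) and from 50.2 and 47.5 CPM to 43.0 and 41.0 CPM with TCDD (-0.22 ± 0.054, adjusted p = 0.00125). Counts of NDUFA6, NDUFV2, NDUFB2 and NDUFC2 are uncertain, since antisense or read-through genes overlap them and it is not given whether the counting used strand.

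COX6B2, COX7C, NDUFA12 and ATP5SL were among the 5 genes that fell with DMSO, and the first 3 of them among the 4 that fell with TCDD. NDUFA12, COX7C and ATP5SL were singled out after their values were seen. The calls of NDUFA12 and ATP5SL (-0.13 ± 0.048, adjusted p = 0.0239) with DMSO were lost when any 1 of the 4 DMSO libraries was left out, at -0.13 to -0.15 and -0.11 to -0.14. The number of falling genes with DMSO was 3 without DMSO at D1 replicate 1, DMSO at D1 replicate 2 or DMSO at D2 replicate 2. Of all 57 calls with DMSO, 44 held in each of 8 fits that left out 1 library, and of 59 with TCDD, 47 held.

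Complex II, succinate dehydrogenase, also belongs to the citric acid cycle. SDHA, the flavoprotein that oxidises succinate, was at 113 and 116 CPM with DMSO at D1 and 109 and 112 CPM at D2 (-0.06 ± 0.046, adjusted p = 0.305), which was not called, and was called lower with no correction for composition (-0.14, adjusted p = 0.011). SDHB, the iron-sulphur subunit, rose from 85.8 and 90.4 CPM to 98.8 and 100.3 CPM with DMSO (0.18 ± 0.050, adjusted p = 0.00419) and by 0.20 ± 0.050 (adjusted p = 0.00181) with TCDD. Its call with DMSO was lost without DMSO at D1 replicate 1 (0.14, adjusted p = 0.0615), and both calls were lost with no correction for composition, each at 0.09. SDHD, a membrane anchor, rose from 59.9 and 61.4 CPM to 79.6 and 77.9 CPM with DMSO (0.38 ± 0.051, adjusted p = 1.66e-06) and from 58.1 and 63.0 CPM to 74.3 and 72.8 CPM with TCDD (0.28 ± 0.051, adjusted p = 5.83e-05). SDHC, the other anchor, rose with DMSO by 0.14 ± 0.050 (adjusted p = 0.0241), a call lost without DMSO at D1 replicate 1 (0.12), DMSO at D2 replicate 1 (0.15) or DMSO at D2 replicate 2 (0.13), and by DESeq2 (0.12, adjusted p = 0.0845). With TCDD it had 0.10 ± 0.050 (adjusted p = 0.0934) and was called without TCDD at D1 replicate 2 (0.15).

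Summed over its genes, complex V went from 3716 and 3761 CPM at D1 to 4652 and 4566 CPM at D2 with DMSO, a ratio of 1.23, and complex III with cytochrome c from 1392 and 1418 CPM to 1720 and 1710 CPM, a ratio of 1.22. Complex IV had a ratio of 1.13, complex II of 1.10 and complex I of 1.09. With TCDD the ratios were 1.22, 1.25, 1.11, 1.10 and 1.11 in the same order. With the TMM scaling used here, the D2 libraries lay above the D1 libraries in each complex. These sums and ratios depend on that scaling and were not made under the others. For comparison, the ratio with DMSO was 1.17 for 78 mitochondrial ribosomal protein genes, of which 55 rose and none fell, and 1.19 for 86 cytosolic ribosomal protein genes, of which 71 of 83 tested rose and 3 fell, against 1.17 for all 89 respiratory genes.

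**Figure D4:**
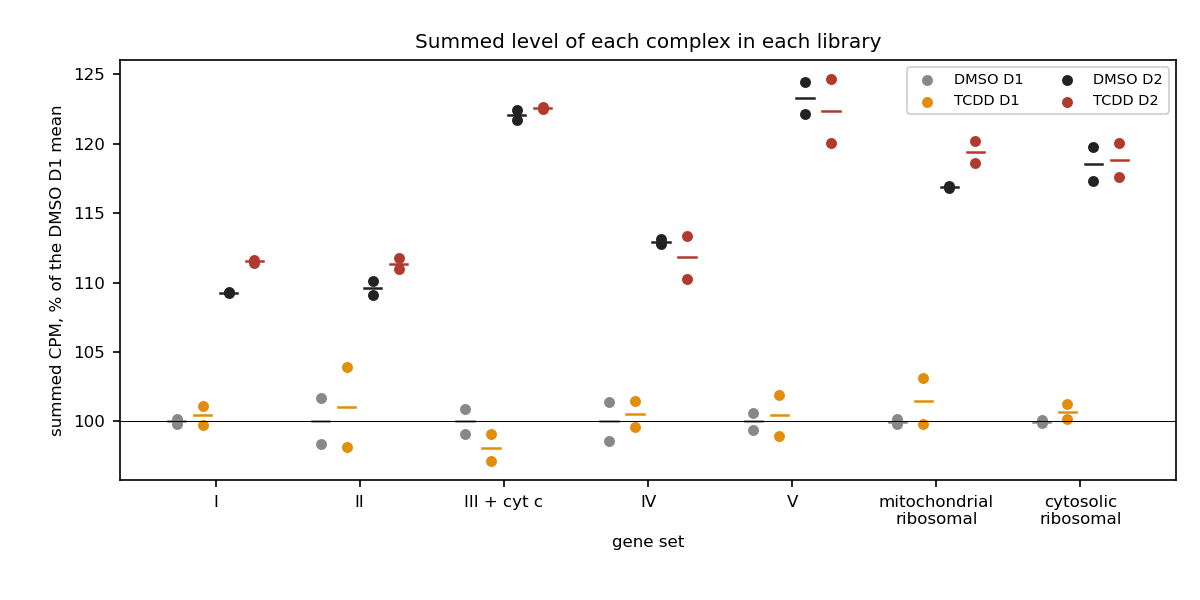
Summed CPM of each complex and of the ribosomal protein genes in each library, in percent of the mean of DMSO at D1 (the vertical axis starts near 95, and the line marks 100). Points are libraries and bars are group means. With the TMM scaling used, the D2 groups stand above the D1 groups in every set, while TCDD and DMSO of the same day overlap or lie near each other.

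No gene of the set was called between TCDD and DMSO. At D1, 0 of 84 were called by edgeR, against 1.14% of all genes, and at D2 again 0 of 84, against 2.9%. DESeq2 also called 0 at both times. At an unadjusted p under 0.05, edgeR had 0 genes at D1 (10.3% of all genes) and 5 at D2 (5.95%, against 14% of all genes), and DESeq2 had 0 and 1. The median log2 fold change was 0.01 at each time, against 0.00 for all genes. For the 80 genes of at least 5 CPM, the 95% intervals lay between -0.24 and 0.25 at D1, so that all 80 were within a 1.2-fold change, and between -0.28 and 0.28 at D2, where 76 of 80 were. The 4 tested genes of lower level (COX4I2, COX6B2, COX7A1 and UQCRHL) had intervals as wide as -0.33 to 0.98 at D1 and -0.50 to 0.90 at D2. The TCDD comparisons share the libraries of the time comparisons above and are not independent of them.

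The 5 genes with an unadjusted p under 0.05 at D2 were all slightly higher with TCDD and did not pass the adjustment. SDHA was at 109 and 112 CPM with DMSO and 117 and 123 CPM with TCDD (0.11 ± 0.046, adjusted p = 0.240), and NDUFS7, a core subunit of complex I, at 52.1 and 51.9 CPM and 53.8 and 61.1 CPM (0.14 ± 0.066, adjusted p = 0.335). In both, the TCDD libraries lay above the DMSO libraries, with the second TCDD library the higher. NDUFB8 had 0.13, NDUFA3 0.14 and NDUFA11 0.10. Among the genes with the largest time changes, TCDD gave -0.03 ± 0.055 (adjusted p = 0.900) for CYCS at D2, -0.10 ± 0.055 (adjusted p = 0.435) for ATP5H and 0.23 ± 0.21 (adjusted p = 0.693) for COX6B2. The difference of the 2 TCDD effects, D2 less D1, was called by edgeR in 0 of 84 genes, against 0.822% of all genes, with 0 at an unadjusted p under 0.05 (10.3% of all genes) and none by DESeq2 by either measure. These libraries differed in the sum of the streak markers and in SOX2 at D2 as given above. They also differed in CYP1A1, which was far lower with TCDD at D2 than at D1. The summed level of the 89 genes at D2 was 11880 and 11780 CPM with DMSO and 11960 and 11740 CPM with TCDD.

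**Figure D5:**
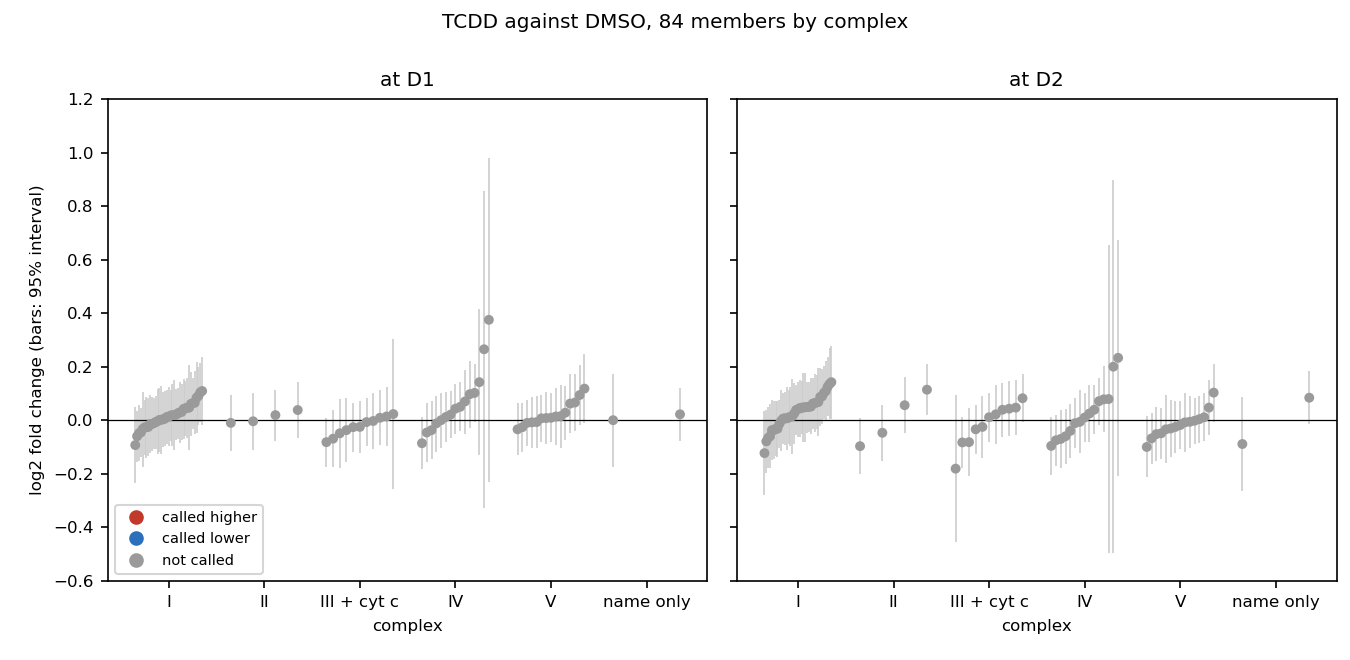
Log2 fold change of TCDD against DMSO with its 95% interval for the 84 tested genes by complex, at D1 (left) and at D2 (right). All points are grey because none was called, and the widest intervals belong to COX4I2 and COX7A1, which had few reads.

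Genes that assemble or control the complexes were counted the same way, and their counts stand beside the 32.5% of all genes that rose and the 30.7% that fell with DMSO. Of 15 complex I assembly factors, 6 rose (40%) and 1 fell with DMSO (7 and 2 with TCDD), a share of rising genes near that of all genes. NDUFAF7, a methyltransferase needed to build complex I, fell, with a log2 fold change of -0.66 ± 0.061 (adjusted p = 6.58e-09) with DMSO and -0.86 ± 0.061 (adjusted p = 1.22e-10) with TCDD, and TMEM126B, of the intermediate that builds the membrane arm, rose by 0.53 ± 0.054 and 0.48 ± 0.054. The median of this list was 0.06 with DMSO and turned to -0.03 with no correction for composition. Of 10 factors for complexes II and III, 7 rose and 2 fell with DMSO, with the Rieske chaperone LYRM7 at 0.52 ± 0.054 and UQCC2, which aids cytochrome b synthesis, at -0.38 ± 0.051. Of 24 for complexes IV and V, 10 rose (41.7%, again near that of all genes) and 3 fell with DMSO, and the median was 0.09, or 0.00 without that correction. LRPPRC, which stabilises mitochondrial mRNA, led them, from 589 and 585 CPM at D1 to 987 and 996 CPM at D2 (0.76 ± 0.043, adjusted p = 3.47e-12), followed by SURF1, a factor of oxidase assembly, at 0.59 ± 0.058.

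Of 19 regulators of mitochondrial gene expression, 10 rose and 4 fell in each time course. ESRRA, the nuclear receptor ERR alpha, rose from 29.7 and 31.5 CPM to 50.1 and 53.3 CPM with DMSO (0.76 ± 0.057, adjusted p = 2.56e-10) and by 0.87 ± 0.057 with TCDD. NRF1, whose motif letters were counted above, rose by 0.54 ± 0.065 (adjusted p = 2.85e-07) with DMSO, while the coactivator PPARGC1A fell from 4.41 and 5.19 CPM to 1.64 and 1.80 CPM (-1.48 ± 0.18, adjusted p = 4.54e-07). The factors of the ETS and YY1 letters moved less with DMSO. GABPA, of the factor GABP, went from 45.1 and 46.7 CPM to 49.6 and 52.3 CPM, and YY1 from 130 and 134 CPM to 138 and 135 CPM. Of 12 tested inhibitors, uncouplers and ADP/ATP carriers, 7 rose and 3 fell with DMSO. NDUFA4L2, a relative of NDUFA4 known from hypoxia, was at 2.00 and 1.42 CPM with DMSO and 3.64 and 2.07 CPM with TCDD at D1 and at 6.23 and 6.50 CPM and 6.65 and 6.36 CPM at D2, so that it rose by 1.89 ± 0.20 and 1.17 ± 0.18 from a low level. At D1 it differed between TCDD and DMSO by 0.76 ± 0.23 (adjusted p = 0.181), which was called only without TCDD at D1 replicate 2 (1.08, adjusted p = 0.00427) or with no filter on low counts (0.75, adjusted p = 0.00138). The difference of its TCDD effects (-0.73, adjusted p = 0.356) was called in the same 2 fits (-1.05 and -0.72).

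Of 14 enzymes of the citric acid cycle, which feeds NADH and succinate to complexes I and II, 10 rose and 3 fell with DMSO. IDH2, the NADP-dependent isocitrate dehydrogenase, fell, with a log2 fold change of -0.64 ± 0.048 (adjusted p = 2.81e-10) with DMSO, and SUCLA2, a subunit of succinyl-CoA synthetase, rose by 0.56 ± 0.050 (adjusted p = 3.53e-09). Between TCDD and DMSO, none of these lists' genes was called at D1, against 1.14% of all genes. At D2, 2 were called, against 2.9% of all genes: 1 of the 14 cycle enzymes and 1 of the 12 inhibitors, uncouplers and carriers. None of the 15, 10 and 24 assembly factors or the 19 regulators was called. SUCLA2 was at 128 and 125 CPM with DMSO and 106 and 110.3 CPM with TCDD at D2 (-0.23 ± 0.049, adjusted p = 0.00985), and SLC25A27, an uncoupling protein family carrier, at 11.4 and 11.5 CPM and 9.45 and 8.12 CPM (-0.37 ± 0.091, adjusted p = 0.0240). The SUCLA2 call was lost without DMSO at D2 replicate 1 (-0.21, adjusted p = 0.173), DMSO at D2 replicate 2 (-0.25, adjusted p = 0.0601) or TCDD at D2 replicate 1 (-0.20, adjusted p = 0.111). The SLC25A27 call was lost without DMSO at D2 replicate 1 (-0.38, adjusted p = 0.136), DMSO at D2 replicate 2 (-0.37, adjusted p = 0.166) or TCDD at D2 replicate 2 (-0.27, adjusted p = 0.408), and by DESeq2 (-0.37, adjusted p = 0.0711). The 2 ribosomal RNAs of the mitochondrial genome were the only mitochondrially encoded RNA analysed here. RNR2 was at 5612 and 6112 CPM with DMSO and 6377 and 6788 CPM with TCDD at D1 and at 6788 and 9127 CPM and 6113 and 4692 CPM at D2, and was not called, except with DMSO when DMSO at D2 replicate 1 was left out (0.64, adjusted p = 0.0327), and lower with TCDD when those groups were fitted alone (-0.29, adjusted p = 0.0483). RNR1 rose with DMSO (0.60 ± 0.19, adjusted p = 0.0462), with its D2 replicates at 449 and 627 CPM, and was not called with TCDD (0.11). Its call was lost when any 1 library other than those of DMSO at D2 was left out (0.59 to 0.62, adjusted p from 0.0635 to 0.132) and with no correction for composition (0.51, adjusted p = 0.0729), upper quartile scaling (adjusted p = 0.0716), no filter on low counts (adjusted p = 0.076), the replicate block (0.59, adjusted p = 0.0691), a fit of the compared groups alone (0.58, adjusted p = 0.156) or the 1.2-fold requirement (adjusted p = 0.122). TCDD against DMSO at D2 gave -0.45 ± 0.19 (adjusted p = 0.409) for RNR1, which was called without DMSO at D2 replicate 1 (-0.67, adjusted p = 4.45e-05), as was the difference from D1 (-0.71, adjusted p = 0.00162).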

How the data were processed

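RNA of 8 libraries of the MEL1 line was measured by sequencing, in 4 groups of 2 taken from the sample titles. The authors deposited raw read counts for each gene symbol, which the values show to be whole numbers that were not normalised. Per the submitters' processing notes, the tools were cutadapt 1.9.1, STAR and featureCounts 1.5.1, and the build was hg19. Annotation, strand setting and the treatment of multi-mapped reads are not given, so counts of overlapping genes and near-identical copies are uncertain. Depth was 34873055 to 43770420 counts per library, and 4199 of 27317 symbols had none. Replicates differed by more than sampling noise, with chi-square statistics of 3.21 to 6.59 per gene over genes with at least 20 counts.

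From these counts, edgeR 4.0.16 (R 4.3.3, limma 3.58.1) kept 17268 genes by filterByExpr, scaled libraries by TMM, and fitted all 8 libraries with a mean per group by the robust quasi-likelihood method (common biological coefficient of variation 3.86%). Two-sided F tests, with p-values adjusted by Benjamini-Hochberg over the genes tested, were made in 5 comparisons: TCDD against DMSO at each time, D2 against D1 with each agent, and the difference of the TCDD effects. Genes with an adjusted p under 0.05 were called. The fit was tested on simulated data. Alternatives were RLE, upper quartile or no composition scaling, no filter beyond 1 count, DESeq2 1.42.0, a fit of the compared groups alone, a replicate block, a test against a 1.2-fold change, and leaving out each library. Exon lengths came from GENCODE v29 (GRCh38), and promoters from RefSeq.

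The genes and lists were chosen with earlier results of these data known. Named genes are the 3 called members of each complex with the largest change among those of at least 5 CPM in each comparison, any called for TCDD, the complex II genes, NDUFAB1, NDUFA4, CYC1, CYCS, UQCRFS1, the isoform pairs and the members below the filter. Up to 3 genes with the smallest p were named from each other list. The other genes named were chosen after their values were seen: ATP5A1, ATP5B, ATP5I, ATP5J, ATP5O, ATP5S, ATP5SL, COX7A2L, COX7C, GABPA, NDUFA3, NDUFA6, NDUFA12, NDUFB2, NDUFB8, NDUFC2, NDUFS1, NDUFS5, NDUFS7, NDUFV1, NDUFV2, UQCRC1, YY1 and the mitochondrial RNR1 and RNR2. UQCRBP1 and ATP5EP2 matched the name patterns and were left out as pseudogenes. Values of 1 gene are not reported here, although it is in the counts.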

Additional observations from a re-analysis of the deposited data

How the results depend on the processing

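The counts of called genes with TCDD against DMSO, 0 higher and 0 lower at D1, at D2 and for the difference of effects, were 0 under every alternative run. For D2 against D1 with DMSO (52 higher, 5 lower), no composition scaling and upper quartile scaling each gave 34 higher and 9 lower, and the test against a 1.2-fold change gave 18 and 1. For D2 against D1 with TCDD (55 higher, 4 lower), the same 3 settings gave 34 and 12, 34 and 11, and 16 and 1. By complex, no composition scaling gave 10 higher and 5 lower in complex I with DMSO and 12 and 8 with TCDD. In complex II it gave 1 higher in each time course and 1 lower with DMSO. In complex III with cytochrome c it gave 5 higher in each time course, and in complex V 1 lower with TCDD. The cause of the shift with scaling was not tested. The 1.2-fold test asks for a larger change by construction. Leaving out 1 library at a time gave 44 to 56 higher and 3 to 5 lower with DMSO, and 46 to 56 higher and 3 to 5 lower with TCDD, where a group left with 1 library is assumed to vary like the others. DESeq2 gave 47 higher and 4 lower with DMSO and 48 and 4 with TCDD. COX8A with TCDD turned to -0.006 with no composition scaling and -0.005 with upper quartile scaling. NDUFS1 with TCDD also changed sign with no composition scaling. With no composition scaling 39 of 57 calls with DMSO and 38 of 59 with TCDD were kept.

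Replicate numbers were shared between groups, but deviations of same-numbered libraries from their group means correlated by only 0.11 (DMSO and TCDD at D1), 0.05 (at D2), 0.03 (D1 and D2 with DMSO) and -0.10 (D1 and D2 with TCDD), and over the respiratory genes alone by -0.22, 0.27, -0.44 and -0.46 in the same order, so the numbers were not taken to pair the libraries. With the replicate block, 52 genes rose and 5 fell with DMSO, 52 rose and 4 fell with TCDD, and 0 were called for TCDD at either time. It kept 57 of 57 and 56 of 59 calls. With the block and the TCDD numbers of D2 crossed, an alternative chosen after seeing the data, 55 rose and 4 fell with TCDD.

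Depth limited COX4I2, COX6B2, COX7A1 and UQCRHL, the tested genes under 5 CPM.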
